A study of Mus musculus with 4 samples.

Results

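The transcripts of 10 genes around the interleukin-7 (IL-7) receptor were followed in leukemic B cell progenitors: the receptor chains *Il7r*, *Il2rg* and *Crlf2*, the feedback inhibitors *Cish*, *Socs1*, *Socs2* and *Socs3*, and the survival kinases *Pim1*, *Pim2* and *Pim3*. They were set by a list of names that uses no measured value, drawn up with earlier results of these data known, and are 10 of the 55359 genes counted. T8 is a pB-ALL (precursor B cell acute lymphoblastic leukemia) cell line from the tumor of 1 *Irf4*-/- mouse, so it stands for 1 clone, and every library carries the *Irf4* deletion. Per the study's methods the line was established with IL-7 containing supernatant on ST2 stromal cells, and after several passages no longer needed these cells to grow. The study found a *Jak3* point mutation in the tumor. T8 cells received an empty retrovirus (EV-RV) or a retrovirus encoding IRF4 (IRF4-RV), and total RNA was sequenced 24 h after transduction from 2 libraries per group. The study describes the cells compared as those still viable at that time, and reports that T8 cells given IRF4 were lost over time. The part of such loss in the results was not tested. The labels give neither the share of cells transduced nor a sort, and their protocol text names the line T11 where titles and tissue name T8. The comparison asks which of these transcripts differ once IRF4 is supplied to cells that lack it.

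IL-7 binds a receptor made of the IL-7Rα chain and the common γ chain, which bring JAK1 and JAK3 together, and the activated kinases phosphorylate STAT5. The same IL-7Rα chain pairs with CRLF2 to form the receptor for thymic stromal lymphopoietin (TSLP), and high *CRLF2* expression marks a subset of human BCP-ALL. STAT5 induces inhibitors of the CIS/SOCS family, which dampen the receptor again, and PIM kinases, which favor survival and growth. In progenitor B cells this pathway drives expansion, and its decline accompanies the step to small preB cells.

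In EV-RV cells all 10 transcripts were present. In IRF4-RV cells *Il7r*, *Pim1* and *Pim3* were lower, *Il2rg*, *Socs2* and *Pim2* were higher, and *Crlf2*, *Cish*, *Socs1* and *Socs3* did not pass the test. All differences were small, from -0.52 for *Pim3* to 0.40 for *Pim2* on the log2 scale. The falls of *Pim1* and *Pim3* passed the test under each alternative that was run, whereas the other 4 calls were each lost without at least 1 of the libraries. Their direction held in those fits, which leave 1 library in a group.

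Of the 10 genes, 9 matched RefSeq promoter windows on GRCm38.p6, each with 250 bases before and 50 after a start site. Both strands were searched for the STAT element known as GAS (TTCNNNGAA), for an IRF repeat (GAAA and, after any 2 bases, GAAA again) and for an ETS-IRF composite (GGAA and, after any 2 bases, GAAA). The stretches that hold a match are shown because STAT5 and IRF4 are the factors the comparison concerns. They are written 5′ to 3′ on the strand of the gene, with the matched bases in capitals.
*Il7r*, chr15:9530006-9530048, minus strand: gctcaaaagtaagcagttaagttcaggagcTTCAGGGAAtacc
*Cish*, chr9:107296653-107296682, plus strand: ccagttTTCCTGGAAagTTCTTGGAAatct
*Socs1*, chr16:10785600-10785649, minus strand: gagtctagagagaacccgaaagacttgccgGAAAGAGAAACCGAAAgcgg
*Socs3*, chr11:117969508-117969550, minus strand: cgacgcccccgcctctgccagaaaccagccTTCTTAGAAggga
Counted from the start site, the GAS match of *Il7r* begins at base -142 and that of *Socs3* at base -154. *Cish* holds 2 GAS matches, at bases 1 and 12, and *Socs1* holds 2 overlapping IRF repeats, at bases -83 and -77. In GENCODE M21 a transcript starts further upstream for 3 of these genes, so the *Cish* stretch lies in an annotated 5′ UTR and the *Il7r* and *Socs3* stretches lie inside the annotated genes, while the *Socs1* stretch lies upstream of its gene. Among all 32851 windows of this length, 8.3% held a GAS match, 0.457% held at least 2, 3.44% held an IRF repeat and 0.225% held at least 2. The windows of *Il2rg*, *Crlf2*, *Pim1*, *Pim2* and *Pim3* held none of the motifs, and no window of the 9 genes held the composite, which was found in 2.72% of all windows. A match describes the letters and is neither a bound site nor a cause of a change.

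Total counts lay between 31230223 and 37817752 per library. Levels are given as CPM, counts scaled to the library total after TMM adjustment. A floor of 3 counts amounted to between 0.0824 and 0.0952 CPM and covers counting error only. *Irf4* counts were 8070 and 7600 in EV-RV cells and 95578 and 90693 in IRF4-RV cells. These counts follow the labels but separate neither vector from endogenous RNA nor the deleted part of the gene. The 13 pro/preB markers summed to 6232 and 6534 CPM in EV-RV cells and 5263 and 5190 CPM in IRF4-RV cells, 2 of them passing the test as higher and 4 as lower, with *Rag1* at no more than 1 count. Markers of T and NK cells did not exceed 1.79 CPM in sum, those of erythroid cells 14.6 CPM, and those of granulocytes 4 counts. The 7 macrophage markers summed to 0.809 and 0.983 CPM with EV-RV, and to 7.85 and 6.65 CPM with IRF4-RV, mostly through *Mrc1*. The part of these marker levels in the results was not tested. The 6 markers of stromal feeder cells summed to 47.6 and 88.9 CPM with EV-RV, and to 46.9 and 221.0 CPM with IRF4-RV. IRF4-RV replicate 2 therefore stood apart, and values without it are given below. In bulk RNA, fewer cells of a type and less RNA per cell cannot be told apart.

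Levels of different genes were compared in EV-RV cells as CPM per kilobase of annotated exons. *Socs2* was highest at 42.2 ± 0.239 (SD, n = 2), followed by *Crlf2* at 36.9 ± 2.38 and *Pim1* at 33.6 ± 2.88, of which the last 2 did not separate beyond their spread. *Pim3* reached 21.8 ± 1.78 and *Il2rg* 13.9 ± 0.520. *Socs3* at 10.0 ± 0.718, *Il7r* at 9.48 ± 0.121 and *Socs1* at 9.09 ± 0.843 did not separate from each other. *Pim2* at 7.67 ± 0.486 and *Cish* at 2.18 ± 0.0770 were lowest. The level of *Socs2* exceeded that of 89.1% of the genes tested and the level of *Cish* that of 35.9%. Per kilobase of the median coding transcript *Socs2* and *Cish* remained the highest and lowest, at 424.5 and 5.10, while *Pim1* at 84.8 then stood above *Crlf2* at 41.7, *Il2rg* at 29.3 above *Pim3* at 21.8, and *Pim2* at 13.6 above *Il7r* at 12.5, *Socs3* at 11.4 and *Socs1* at 9.29.

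**Figure D1:**
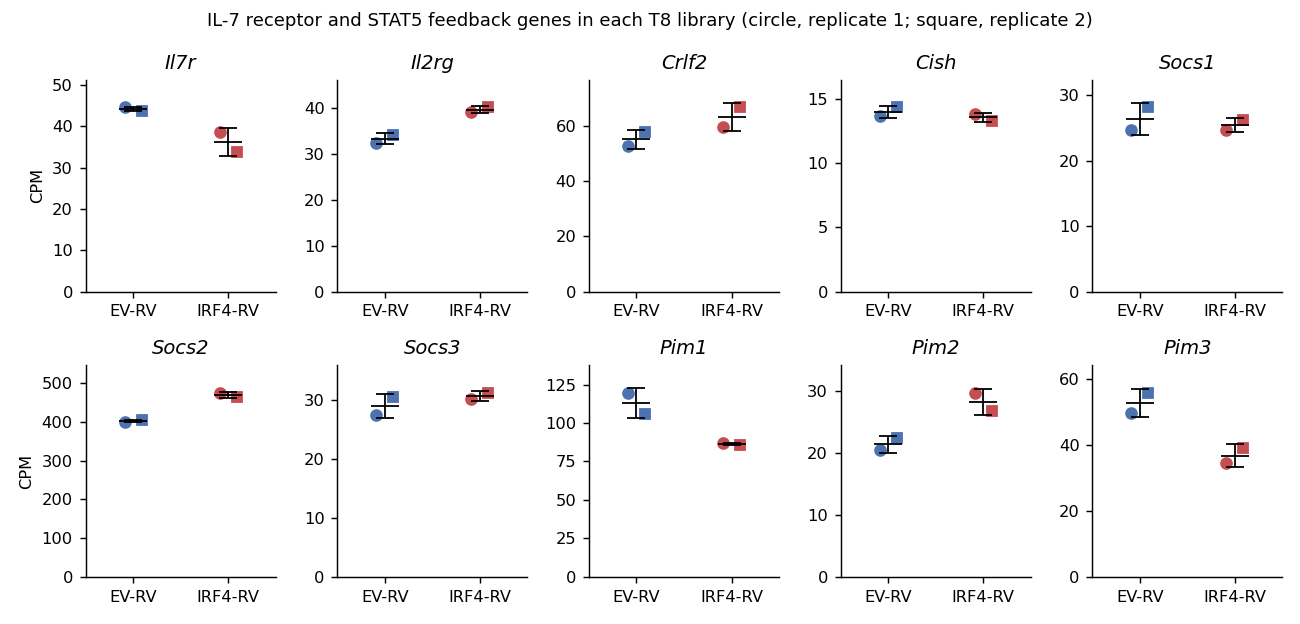
CPM of each of the 10 genes (y axis, starting at 0) in the EV-RV and IRF4-RV libraries (x axis). Points are libraries, horizontal lines are the mean and SD of 2 libraries. The libraries of the groups do not overlap for *Il7r*, *Il2rg*, *Crlf2*, *Socs2*, *Pim1*, *Pim2* and *Pim3*, and overlap for *Cish*, *Socs1* and *Socs3*.

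Across the 10 genes, 6 passed the threshold (edgeR quasi-likelihood test, Benjamini-Hochberg FDR of 0.1), 3 higher and 3 lower. Of all 14637 genes tested, 29.7% passed, 16% higher and 13.7% lower, and of the 7868 genes with a mean level at least that of the lowest of the 10, 38.1% passed. The groups did not overlap in CPM for 7 of the 10 genes and for 61.3% of all genes tested. The median log2 fold change was 0.02 for the 10 genes and 0.01 for all genes, and the median size without sign was 0.24 for both. None of the 10 changed by more than 1 on the log2 scale, while 6.62% of all genes passed the threshold with such a change. By share called and by size, the 10 genes are described here beside this background, with no test of the list.

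**Figure D2:**
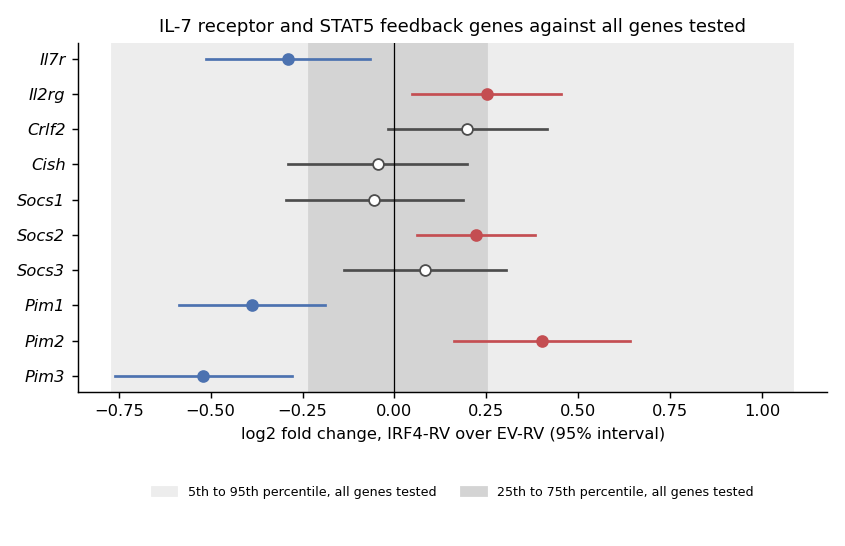
Log2 fold change of IRF4-RV over EV-RV (x axis) for each of the 10 genes (y axis), with 95% intervals from edgeR. Filled points passed the FDR of 0.1, and grey bands give the ranges of all genes tested, from -0.77 to 1.09 for the middle 90% and from -0.23 to 0.25 for the middle 50%. Intervals of *Crlf2*, *Cish*, *Socs1* and *Socs3* cross 0.

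Among the receptor chains, *Il7r* (ENSMUSG00000003882, chromosome 15, 9505788 to 9530176, minus strand) encodes IL-7Rα, the chain shared by the IL-7 and TSLP receptors. EV-RV libraries held 1488 and 1381 counts and IRF4-RV libraries 1306 and 1231, or 44.6 and 43.8 against 38.6 and 33.8 CPM. Both IRF4-RV libraries were below both EV-RV libraries. The log2 fold change was -0.29 (standard error 0.0960, 95% interval -0.51 to -0.07, edgeR adjusted p = 0.0686), and the level fell by 18.2%. Without IRF4-RV replicate 2 the value was -0.19 and the call was lost. The call was also lost without EV-RV replicate 1 (-0.28) or EV-RV replicate 2 (-0.30). Each of these fits has 1 library in a group.

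*Il2rg* (ENSMUSG00000031304, chromosome X, 101264378 to 101268255, minus strand) encodes the common γ chain, which carries JAK3 and serves several cytokine receptors. The counts were 1079 and 1075 against 1320 and 1458 in IRF4-RV cells, or 32.3 and 34.1 against 39.0 and 40.0 CPM. The IRF4-RV libraries were both higher. The log2 fold change was 0.25 (standard error 0.0868, 95% interval 0.05 to 0.45, edgeR adjusted p = 0.0781). This call was lost whichever library was left out, with edgeR adjusted p between 0.1097 and 0.315, and with scaling to library size only (0.16, edgeR adjusted p = 0.205). *Il2rg* shares 728 exon bases with *Gm20489* on the same strand, which was at 0 counts in all libraries.

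*Crlf2* (ENSMUSG00000033467, chromosome 5, 109554709 to 109558993, minus strand) encodes the chain that completes the TSLP receptor. In EV-RV libraries 1758 and 1820 counts were found, and 2027 and 2433 in IRF4-RV libraries, or 52.7 and 57.7 against 59.9 and 66.8 CPM. Although the groups did not overlap, the difference of 0.20 on the log2 scale (standard error 0.0935, 95% interval -0.02 to 0.42) did not pass the test (edgeR adjusted p = 0.178).

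The 3 chains assemble in pairs, so their counts were also set against each other within each library. For EV-RV against IRF4-RV, the ratio of *Il7r* to *Il2rg* counts was 1.38 and 1.28 against 0.989 and 0.844. That of *Il7r* to *Crlf2* was 0.846 and 0.759 against 0.644 and 0.506. In both ratios every IRF4-RV library lay below every EV-RV library. This order follows from the CPM above, where *Il7r* was lower and *Il2rg* and *Crlf2* were higher in each IRF4-RV library. It is no further evidence. The ratio of *Crlf2* to *Il2rg* overlapped between the groups, at 1.63 and 1.69 against 1.54 and 1.67. A ratio within a library does not depend on scaling and shows unequal change only. With 2 libraries per group an exact two-sided permutation test cannot give a p below 0.333, so the ratios are a description.

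Among the feedback inhibitors, *Socs2* (ENSMUSG00000020027, chromosome 10, 95385362 to 95417180, minus strand) encodes a ubiquitin ligase adaptor best known for limiting growth hormone receptor signaling. EV-RV cells gave 13374 and 12740 counts and IRF4-RV cells 16105 and 16871, or 401 and 404 against 476 and 463 CPM. The groups were well apart relative to their spread, at 402.5 ± 2.28 and 469.5 ± 8.58 CPM (SD, n = 2). The log2 fold change was 0.22 (standard error 0.0689, 95% interval 0.06 to 0.38, edgeR adjusted p = 0.0543). Leaving out each library gave 0.18 to 0.25, in fits with 1 library in a group. *Socs2* no longer passed without EV-RV replicate 1, IRF4-RV replicate 1 or IRF4-RV replicate 2. Nor did it pass with library size only (0.13, edgeR adjusted p = 0.173).

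*Cish* (ENSMUSG00000032578, chromosome 9, 107296026 to 107302784, plus strand) encodes CIS, which binds activated cytokine receptors and is a classical STAT5 target. Its 455 and 452 counts in EV-RV libraries and 468 and 484 in IRF4-RV libraries, or 13.6 and 14.3 against 13.8 and 13.3 CPM, overlapped. The log2 fold change was -0.05 (standard error 0.105, 95% interval -0.29 to 0.20, edgeR adjusted p = 0.805). Its exons overlap *Gm17040* and *Gm17041* on the other strand, which held at most 12 counts in a library.

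*Socs1* (ENSMUSG00000038037, chromosome 16, 10782240 to 10785536, minus strand) encodes an inhibitor that blocks JAK kinase activity and is induced by cytokines and interferons. There were 824 and 888 counts in EV-RV cells against 835 and 955 in IRF4-RV cells, or 24.7 and 28.2 against 24.7 and 26.2 CPM. The groups overlapped, and the log2 fold change was -0.05 (standard error 0.103, 95% interval -0.29 to 0.19, edgeR adjusted p = 0.757). *Socs3* (ENSMUSG00000053113, chromosome 11, 117966079 to 117970047, minus strand) encodes an inhibitor of gp130-type cytokine receptors. With 919 and 961 counts against 1022 and 1139, or 27.5 and 30.5 against 30.2 and 31.3 CPM, it overlapped too. Its log2 fold change was 0.08 (standard error 0.0950, 95% interval -0.14 to 0.30, edgeR adjusted p = 0.585), and with library size only it turned to -0.0064. The intervals of *Cish*, *Socs1* and *Socs3* together span from -0.29 to 0.30 on the log2 scale.

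Summed over the 4 inhibitors, CIS/SOCS transcripts held 466.7 and 477.1 CPM in EV-RV cells and 544.2 and 534.2 CPM in IRF4-RV cells. *Socs2* made up 85.9% and 84.7% of that sum in the former and 87.4% and 86.7% in the latter, so the sum follows this gene. The ratio of *Socs2* to *Cish* counts was 29.4 and 28.2 against 34.4 and 34.9 in IRF4-RV cells, and did not overlap.

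The PIM kinases are serine/threonine kinases without a known regulatory domain, whose activity is set mainly by how much is made. *Pim1* (ENSMUSG00000024014, chromosome 17, 29490753 to 29496112, plus strand), first known as an insertion site of murine leukemia virus in lymphomas, was the most abundant. EV-RV libraries contained 3993 and 3341 counts and IRF4-RV libraries 2936 and 3126, or 119.7 and 106 against 86.7 and 85.9 CPM. The IRF4-RV libraries lay close together below both EV-RV libraries, which differed more from each other. The log2 fold change was -0.39 (standard error 0.0853, 95% interval -0.59 to -0.19, edgeR adjusted p = 0.0149). Without EV-RV replicate 1, the higher of the pair, it was -0.31 (edgeR adjusted p = 0.0517). *Gm26885* overlaps *Pim1* on the other strand and held at most 1 count.

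*Pim3* (ENSMUSG00000035828, chromosome 15, 88862186 to 88865726, plus strand) showed the largest change of the 10 genes. Counts of 1664 and 1765 in EV-RV cells stood against 1168 and 1430 in IRF4-RV cells, or 49.9 and 56.0 against 34.5 and 39.3 CPM, without overlap. Its log2 fold change was -0.52 (standard error 0.104, 95% interval -0.76 to -0.28, edgeR adjusted p = 0.00969). The size of this change exceeded that of 76.6% of the genes tested.

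*Pim2* (ENSMUSG00000031155, chromosome X, 7878262 to 7883432, plus strand), known as a survival kinase of lymphocytes, went the other way. Counts were 683 and 706 in EV-RV libraries and 1009 and 977 in IRF4-RV libraries, or 20.5 and 22.4 against 29.8 and 26.8 CPM. Both IRF4-RV libraries were higher (log2 fold change 0.40, standard error 0.103, 95% interval 0.16 to 0.64, edgeR adjusted p = 0.0272). The call was lost without EV-RV replicate 1 (0.33) or IRF4-RV replicate 1 (0.30), in fits with 1 library in a group.

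The PIM transcripts were also set against each other within each library. The ratio of *Pim1* to *Pim2* counts was 5.85 and 4.73 in EV-RV cells and 2.91 and 3.20 in IRF4-RV cells, and that of *Pim3* to *Pim2* was 2.44 and 2.50 against 1.16 and 1.46. The lower ratios with IRF4-RV follow from the CPM above, where *Pim1* and *Pim3* were lower and *Pim2* was higher in each IRF4-RV library. *Pim1* to *Pim3* overlapped between the groups and lay between 1.89 and 2.51 in all libraries. Summed, PIM transcripts held 190.0 and 184.3 CPM in EV-RV cells and 151.0 and 152.0 CPM in IRF4-RV cells, and no test was run on the sum.

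**Figure D3:**
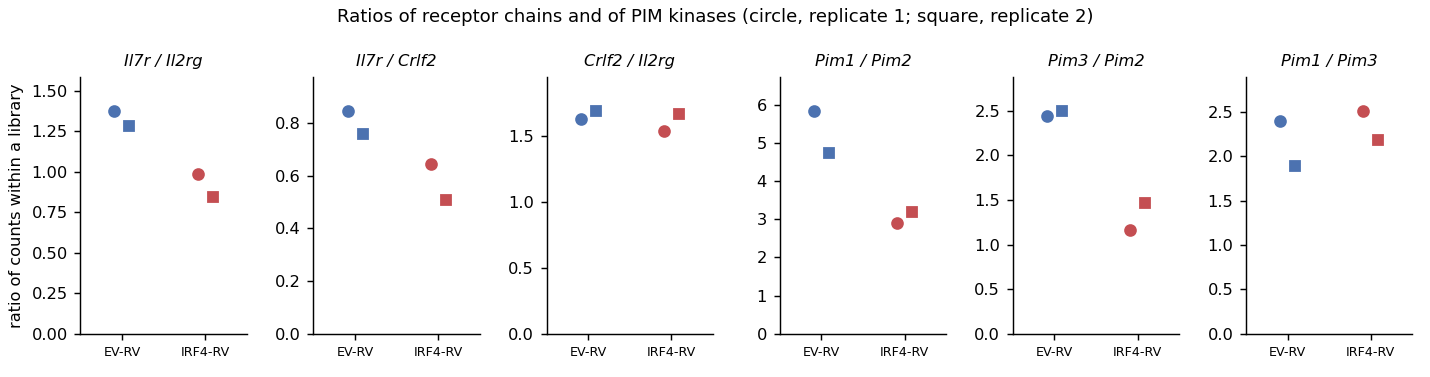
Ratios of counts within a library (y axes, starting at 0) for pairs of receptor chains and of PIM kinases in the EV-RV and IRF4-RV libraries (x axis), 1 point per library. Both ratios with *Il7r* in the numerator and both with *Pim2* in the denominator are lower in each IRF4-RV library. This order follows from the CPM of these genes. *Crlf2* to *Il2rg* and *Pim1* to *Pim3* overlap.

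Without IRF4-RV replicate 2, the library with the most stromal marker RNA, *Pim3* was at -0.61, *Pim1* at -0.38 and *Pim2* at 0.48. *Il7r* (-0.19), *Il2rg* (0.24) and *Socs2* (0.25) also kept their direction. This fit leaves 1 IRF4-RV library, so the values are given as sizes only.

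**Figure D4:**
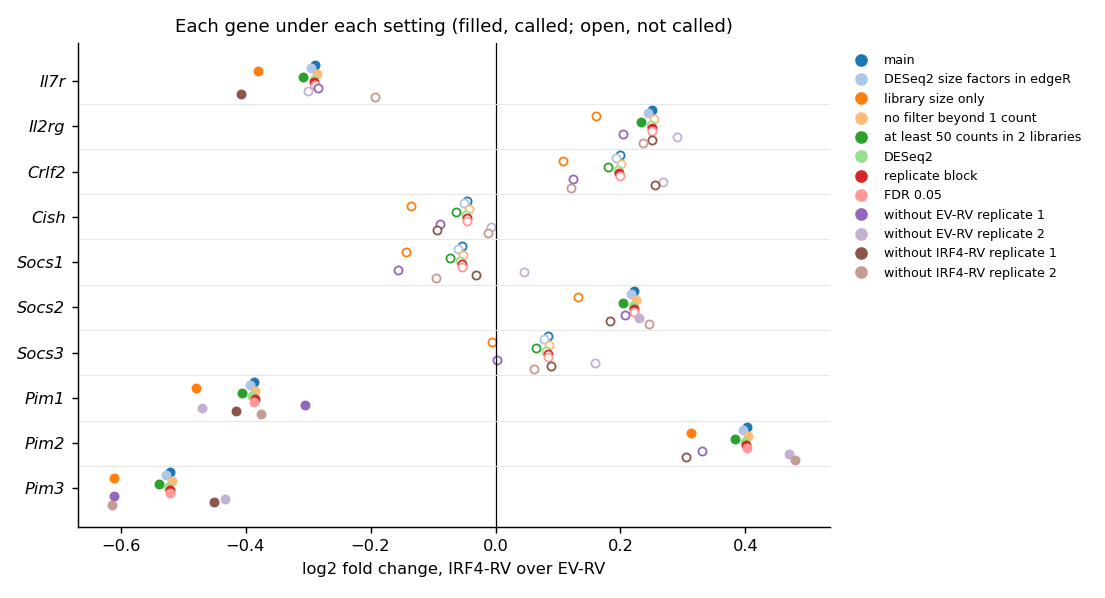
Log2 fold change of IRF4-RV over EV-RV (x axis) of each of the 10 genes (y axis) under the main setting and each alternative, including leaving out each library. Filled points passed the threshold of that setting. *Pim1* and *Pim3* are filled throughout, and *Socs1* and *Socs3* fall on both sides of 0.

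The other genes of the pathway were read by role. Of 7 ligands, *Il2* alone passed the filter, at 11 and 21 counts in EV-RV cells and 15 and 25 in IRF4-RV cells (log2 fold change 0.19, standard error 0.514, edgeR adjusted p = 0.836). *Il7* was counted 8 and 1 times against 1 and 7 times, and *Tslp* was at 0 in all libraries, which allows no more than 0.0952 CPM. RNA for the ligands of the IL-7 and TSLP receptors was thus at or near the floor in these libraries.

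Among 6 further receptors that use the common γ chain, 4 were tested, and 1 rose and 1 fell (50% called, against 29.7% of all genes tested). The share called was 38.1% among genes with a mean level at least that of the lowest of the 10 genes. *Il2ra*, the high-affinity chain of the IL-2 receptor, had 580 and 480 counts in EV-RV cells and 2100 and 1807 in IRF4-RV cells. The rise (log2 fold change 1.77, standard error 0.132, edgeR adjusted p = 8.32e-05) was larger than that of any of the 10 genes. *Il21r*, the IL-21 receptor, dropped from 460 and 429 to 223 and 190 counts (log2 fold change -1.22, standard error 0.143, edgeR adjusted p = 0.000884). *Il2rb*, which IL-2 signaling also needs, was at 4 and 7 counts in EV-RV cells and 9 and 19 in IRF4-RV cells and was not tested. It is given here after its values were seen.

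Of 10 JAK kinases and STAT factors, 9 were tested, and 3 rose and none fell, with a median log2 fold change of 0.18. The share called was 33.3%, close to the 29.7% of all genes tested. The kinases and STAT factors that the IL-7 receptor uses did not pass the test. *Jak1* was at 0.02 (standard error 0.105, edgeR adjusted p = 0.913), *Jak3* at 0.18 (0.0780 and 0.138), *Stat5a* at -0.11 (0.108 and 0.518) and *Stat5b* at 0.07 (0.0888 and 0.614), and with library size only *Jak1* and *Stat5b* turned to -0.07 and -0.02. The ratio of *Jak3* to *Il2rg* counts overlapped between the groups, at 2.16 and 1.98 against 1.95 and 2.00. The increases were in *Stat2* (1.88, standard error 0.114, edgeR adjusted p = 3.20e-05), which carries interferon signals, in *Stat3* (0.44, standard error 0.106, edgeR adjusted p = 0.0208), and in *Stat6* (0.35, edgeR adjusted p = 0.0132), the last named after its values were seen.

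All 16 further inhibitors, among them other SOCS proteins, phosphatases, PIAS proteins, the adaptor *Sh2b3* and CBL ligases, were tested, and 6 rose and 1 fell (median 0.09). The share called was 43.8%, against 29.7% of all genes tested. *Sh2b3*, which encodes LNK and restrains JAK2 and cytokine receptors, rose by 0.57 (standard error 0.0991, edgeR adjusted p = 0.00549), and *Ptprc*, the phosphatase CD45, by 0.53 (standard error 0.108, edgeR adjusted p = 0.0109). *Socs5* fell by 0.85 (standard error 0.132, edgeR adjusted p = 0.00327). Of the other SOCS genes in this list, *Socs7* was higher (0.44, edgeR adjusted p = 0.0117), and *Socs4* (0.04) and *Socs6* (-0.16) did not pass the test. *Socs4*, *Socs6* and *Socs7* are given after their values were seen.

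Other genes known as STAT5 targets in lymphoid cells were also divided. Of 7 tested, 2 rose and 3 fell (median -0.04), which is 71.4% called against 29.7% of all genes tested. *Ccnd2*, cyclin D2, had 13578 and 12138 counts in EV-RV cells and 36191 and 35801 in IRF4-RV cells (log2 fold change 1.37, standard error 0.0790, edgeR adjusted p = 2.60e-05), and *Mcl1*, an anti-apoptotic BCL2 relative, was higher by 0.25 (standard error 0.0699, edgeR adjusted p = 0.0379). The *Mcl1* call was lost with library size only (0.16, edgeR adjusted p = 0.131). It was also lost in fits with 1 IRF4-RV library, at 0.21 without replicate 1 and 0.28 without replicate 2. *Myc* dropped from 9322 and 8915 to 4804 and 4479 counts (-1.09, standard error 0.0873, edgeR adjusted p = 0.000133) and *Ccnd3*, cyclin D3, was at -0.80 (standard error 0.0724, edgeR adjusted p = 0.000241). The third fall was that of *Bcl2* (-0.46, edgeR adjusted p = 0.0264), named after its values were seen. STAT5 targets therefore moved in both directions.

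Genes that IL-7 signaling is known to hold down in progenitor B cells were listed as well. Of 5, 3 were tested and all 3 rose (median 1.04), while 16% of all genes tested passed as higher. *Igkc*, the κ light chain constant gene, was counted 5915 and 5875 times against 15521 and 17137 (log2 fold change 1.35, standard error 0.0724, edgeR adjusted p = 1.95e-05). *Blnk*, the adaptor of preB cell receptor signaling, was also higher (log2 fold change 1.04, standard error 0.0760, edgeR adjusted p = 7.64e-05), and *Bcl6*, named after its values were seen, too (0.80, edgeR adjusted p = 0.0453). *Rag1* and *Rag2* did not exceed 1 count in any library. The study already reports higher Igκ and *Blnk* RNA for this comparison in T8, so their rise is not an independent result. Whether IL-7 signaling itself changed was not tested.

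Interferon-stimulated genes were counted because *Socs1* and *Pim1* also answer to cytokines other than IL-7. All 8 rose, while 16% of all genes tested passed as higher. Among the 8, *Ifit1* went from 3 and 0 to 92 and 221 counts and *Mx1* from 0 and 1 to 47 and 33. For *Ifit1* and *Mx1* no fold is given, since they were at the floor with EV-RV. This rise was known from earlier results of these data.

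**Figure D5:**
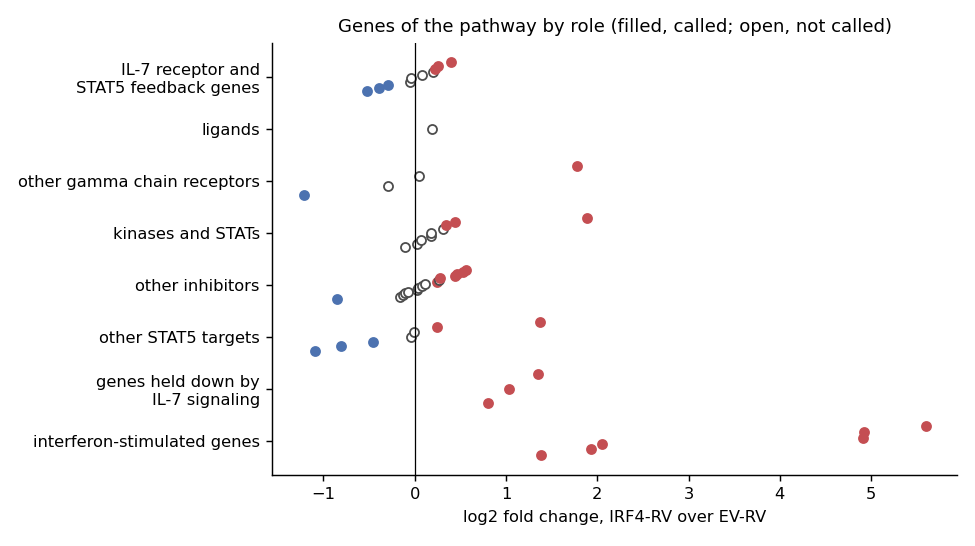
Log2 fold change of IRF4-RV over EV-RV (x axis) of the genes tested in each list (y axis), with filled points for genes past the FDR of 0.1. *Ifit1* and *Mx1*, at no more than 3 counts in each EV-RV library, are not drawn. The 10 IL-7 receptor and STAT5 feedback genes lie between -0.52 and 0.40, within the span of the STAT5 targets (-1.09 to 1.37).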

How the data were processed

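Bulk RNAseq counts from 4 libraries of T8 cells were used. Per the labels and the study's methods, the authors used STAR (version 2.4.0j, build GRCm38) for alignment and featureCounts for counting per gene, and they deposited raw counts without normalization. Settings for strand and multiple alignments are not given in the sources used here, so overlapping genes are uncertain. Of 55359 identifiers, 52083 matched GENCODE M21, which gave symbols and coordinates, and the others held 0.203% to 0.486% of counts.

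Genes passing filterByExpr (14637) were tested in R 4.3.3 by the quasi-likelihood F test of edgeR 4.0.16 after TMM scaling. P-values were adjusted by Benjamini-Hochberg over all of them, and the study's FDR cutoff of 0.1 was kept. Standard errors were derived from the F statistic. The procedure was also run on simulated counts in which far fewer genes changed than were called here. That run does not test the scaling of these data. The design text calls the libraries biological replicates without naming separate cultures, so p-values measure the spread between these libraries. Chi-square per degree of freedom between replicates was 14.1 (EV-RV) and 13.1 (IRF4-RV), above sampling noise.

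The 10 genes and all lists were chosen with earlier results of these data known, and 1 gene of the list of kinases and STAT factors is not reported here. Named genes are the 10, *Irf4*, *Jak1*, *Jak3*, *Stat5a* and *Stat5b*, and from each list the 2 largest rises and 2 largest falls past the threshold, or the 2 most counted genes where none passed. Alternatives were DESeq2 1.42.0, its size factors in edgeR, library size only, no filter beyond 1 count, at least 50 counts in 2 libraries, a replicate block, an FDR of 0.05, and leaving out each library.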

Additional observations from a re-analysis of the deposited data

How the results depend on the processing

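Across all genes tested the number called was 4349 (29.7%), and with the replicate block 6394 (43.7%). Replicate numbers are shared by the groups in the labels, and the paired deviations correlated with r = 0.284 across genes. The summed stromal markers were also higher in replicate 2 of both groups, at 88.9 against 47.6 CPM with EV-RV and 221.0 against 46.9 CPM with IRF4-RV. Whether the replicates were paired was not tested. With the replicate block 7 of the 10 genes were called, *Crlf2* being added (0.20, edgeR adjusted p = 0.0156), against 6 without it, and *Jak3* also passed (0.18, edgeR adjusted p = 0.0192). At an FDR of 0.05 3 of the 10 were called (*Pim1*, *Pim2* and *Pim3*), beside 22.9% of all genes tested. *Il7r* (-0.29), *Il2rg* (0.25) and *Socs2* (0.22) were lost. Leaving out 1 library lowered the number of calls both among the 10 genes and among all genes. With library size only, which moved the median of all genes to -0.08, 4 of the 10 and 31.5% of all genes were called. Of all calls with that setting 1743 were higher and 2867 lower, against 2340 and 2009. *Il2rg* was lost there (0.16), with no filter beyond 1 count (0.25) and with DESeq2 (0.25), and *Socs2* was lost with library size only (0.13). *Socs3* (-0.0064), *Jak1* (-0.073) and *Stat5b* (-0.018) changed sign with library size only. Leaving out each library gave -0.41 to -0.19 for *Il7r*, 0.20 to 0.29 for *Il2rg*, 0.12 to 0.27 for *Crlf2*, -0.16 to 0.045 for *Socs1*, 0.18 to 0.25 for *Socs2*, 0.30 to 0.48 for *Pim2*, -0.47 to -0.31 for *Pim1*, -0.61 to -0.43 for *Pim3*, -0.24 to 0.77 for *Il2*, -0.12 to 0.17 for *Jak1* and -0.044 to 0.17 for *Stat5b*. The causes were not tested. A fit without 1 library leaves a lone sample that is assumed to vary like the other group. Each of the 10 genes had at least 452 counts in each library, and the precision is limited by having 2 libraries per group.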
